A study of Mus musculus with 27 samples.

Results

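The response of irradiated bone marrow macrophages of C57BL/6 mice to lipopolysaccharide (LPS) was read in 12 of the 27 RNA-seq libraries of the series (18 of the 27 are from irradiated cells). The 12 libraries were chosen by 2 measured values: a FLASH or standard library counted as LPS state where Irg1 (the itaconate synthase gene, now Acod1) reached 500 CPM (read counts scaled to library size), as IL-4 state where Arg1 reached 100 CPM, and as control state otherwise. This gave 6 LPS-state and 6 control-state libraries, each with 3 FLASH and 3 standard libraries, and left 6 IL-4-state libraries aside. Bone marrow cells from the femur and tibia had received 5 Gy of protons, either as FLASH (ultra-high dose rate) or at a standard dose rate, and the non-irradiated cells had no dose. All cells, controls included, then grew for 7 days in 10 ng/ml CSF-1, the growth factor that turns marrow precursors into macrophages. For the last 2 days they were given 100 ng/ml LPS (labelled M1), 20 ng/ml IL-4 (M2) or control medium (M0). The irradiation therefore preceded differentiation, and the macrophages are descendants of exposed precursors. The labels do not say whether replicates are separate mice or cultures, so the p-values measure only the spread between these libraries, which may be technical. In the titles each replicate number goes with 1 code that all groups share and that has the form of a date, without a word on what it marks.

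LPS is a glycolipid of the outer membrane of Gram-negative bacteria, which macrophages detect with CD14, MD-2 (Ly96) and TLR4. TLR4 signals through MyD88 to NF-kappaB, which switches on cytokine and chemokine genes, and through TRAM and TRIF to IRF3, which switches on interferon beta. Secreted interferon then acts back on the cells through the interferon receptor and raises antiviral genes, so that 2 days after LPS both layers of the response, and the inhibitors that restrain them, can be read in the RNA.

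The state of 5 libraries by the rule went against their labels, and all 5 are labelled replicate 1. The library labelled FLASH M1 replicate 1 was in the control state, those labelled FLASH M2 replicate 1 and Standard M2 replicate 1 were in the LPS state, and those labelled FLASH M0 replicate 1 and Standard M1 replicate 1 were in the IL-4 state. Irg1 was 1282 to 1715 CPM in the 6 LPS-state libraries and 10.5 to 30.9 CPM in the other 12 irradiated libraries, so no library lay near the threshold of 500 CPM. Arg1 was 631 to 1057 CPM in the IL-4 state and 4.64 to 12.2 CPM in the 12 libraries described here. Because these values made the groups, the values of all 6 and 6 libraries are given here as a description, and no p-value was computed from that grouping. Tests used the labels: the 4 irradiated libraries labelled M1 replicate 2 or 3 against the 4 labelled M0 replicate 2 or 3, together with the 4 non-irradiated libraries of the same numbers, with each irradiation mode and state as a group in limma. Leaving out replicate 1 was decided with these values known. With all 3 replicate numbers under their labels, limma called 0 genes for irradiated cells (3881 at an unadjusted p under 0.05), 0 for FLASH (2192) and 0 for standard (2394).

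The deposited values are CPM after the authors' TMM scaling, so the read depth of each library is unknown. The 12 columns sum to between 949896 and 1066723, and 11621 to 12127 genes reached 1 CPM. Across genes, libraries correlated with r = 0.976 to 0.985 within a state and 0.922 to 0.946 between the states (log2 scale), and no 2 libraries held identical values. Macrophage markers were present in all 12 libraries: Lyz2 stood at 13773 to 18043 CPM in the LPS state and 12979.7 to 20397 CPM in the control state, and Cd68 at 743 to 886 CPM and 1076 to 1211 CPM. The summed level of 12 T and NK cell markers was 1.49 to 4.95 CPM and 1.74 to 7.60 CPM, and that of 10 B lineage markers 12.7 to 40.2 CPM and 15.3 to 43.8 CPM. In bulk RNA, fewer cells of a type and less RNA per cell cannot be told apart.

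Below, 3 values for a gene are the lowest, median and highest CPM of the 6 libraries of a state. Changes are log2 differences ± SE on the log2(CPM + 0.5) scale from the 4 and 4 label-matched libraries, which understates the change of genes with low values, and "called" means a Benjamini-Hochberg adjusted p below 0.05 over all 13100 genes tested. CPM is not divided by transcript length, so levels are compared between libraries and never between genes.

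LPS changed 4464 of the 13100 genes (34.1%) in irradiated macrophages, 2289 higher (17.5%) and 2175 lower (16.6%), and the median change over all tested genes was 0.01. The list counts below are to be read beside these shares, and counts near them do not set a list apart. The larger changes were mostly increases: 277 called genes were at least 4-fold higher and 111 at least 4-fold lower, and at 16-fold the counts were 49 and 2. Of the called genes, 2077 of the higher and 1960 of the lower had no overlap between the 4 and 4 libraries, and over all tested genes 2434 (18.6%) lay higher and 2326 (17.8%) lower without overlap. The 4 libraries numbered replicate 1, grouped by the rule, did not enter the test: there, both LPS-state libraries were above both control-state libraries for 2066 (90.3%) of the genes called higher, and below both for 1896 (87.2%) of the genes called lower. Among the genes not called, the shares were 24.6% above and 22.9% below. The rule placed these libraries by Irg1 and Arg1, so genes that vary with either can separate there through the grouping itself. These shares are a description and no test of the calls.

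Among the genes that rose most was Saa3, an acute-phase protein of macrophages, at 1432, 1786 and 2337 CPM in the LPS state and 19.7, 28.9 and 33.3 CPM in the control state (6.0 ± 0.20, adjusted p = 1.80e-07). Ccl5, a chemokine for T cells and monocytes, stood at 1036, 1573 and 1658 CPM against 10.3, 19.9 and 27.6 CPM (6.23 ± 0.25). The library labelled Standard M1 replicate 3 held the lowest Ccl5 value of the LPS state. Siglece, an inhibitory sialic acid receptor, had 187, 203 and 212 CPM against 1.58, 3.69 and 6.16 CPM (5.77 ± 0.47), a range within the LPS state narrower than for any of the other genes in this paragraph. Gpr84, a receptor for medium-chain fatty acids, had 95.7, 113 and 123 CPM against 0.871, 2.17 and 3.31 CPM (5.54 ± 0.49). The formyl peptide receptors Fpr1 (5.50 ± 0.46) and Fpr2 (5.47 ± 0.56), which detect bacterial peptides, and Clec4e (Mincle, a receptor for mycobacterial glycolipid, 5.43 ± 0.39) rose as well. The remaining genes of the 10 largest increases were Ms4a4c (5.58 ± 0.38) and Serpinb2, an inhibitor of plasminogen activators (5.39 ± 0.46), beside Irg1, which the rule used. These 9 genes were chosen for no overlap in the 4 and 4 tested libraries, so their separation there is part of the choice. The libraries numbered replicate 1 were separated as well, but the rule had put them into states by Irg1 and Arg1. Their separation is therefore a description and no separate support.

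**Figure D1:**
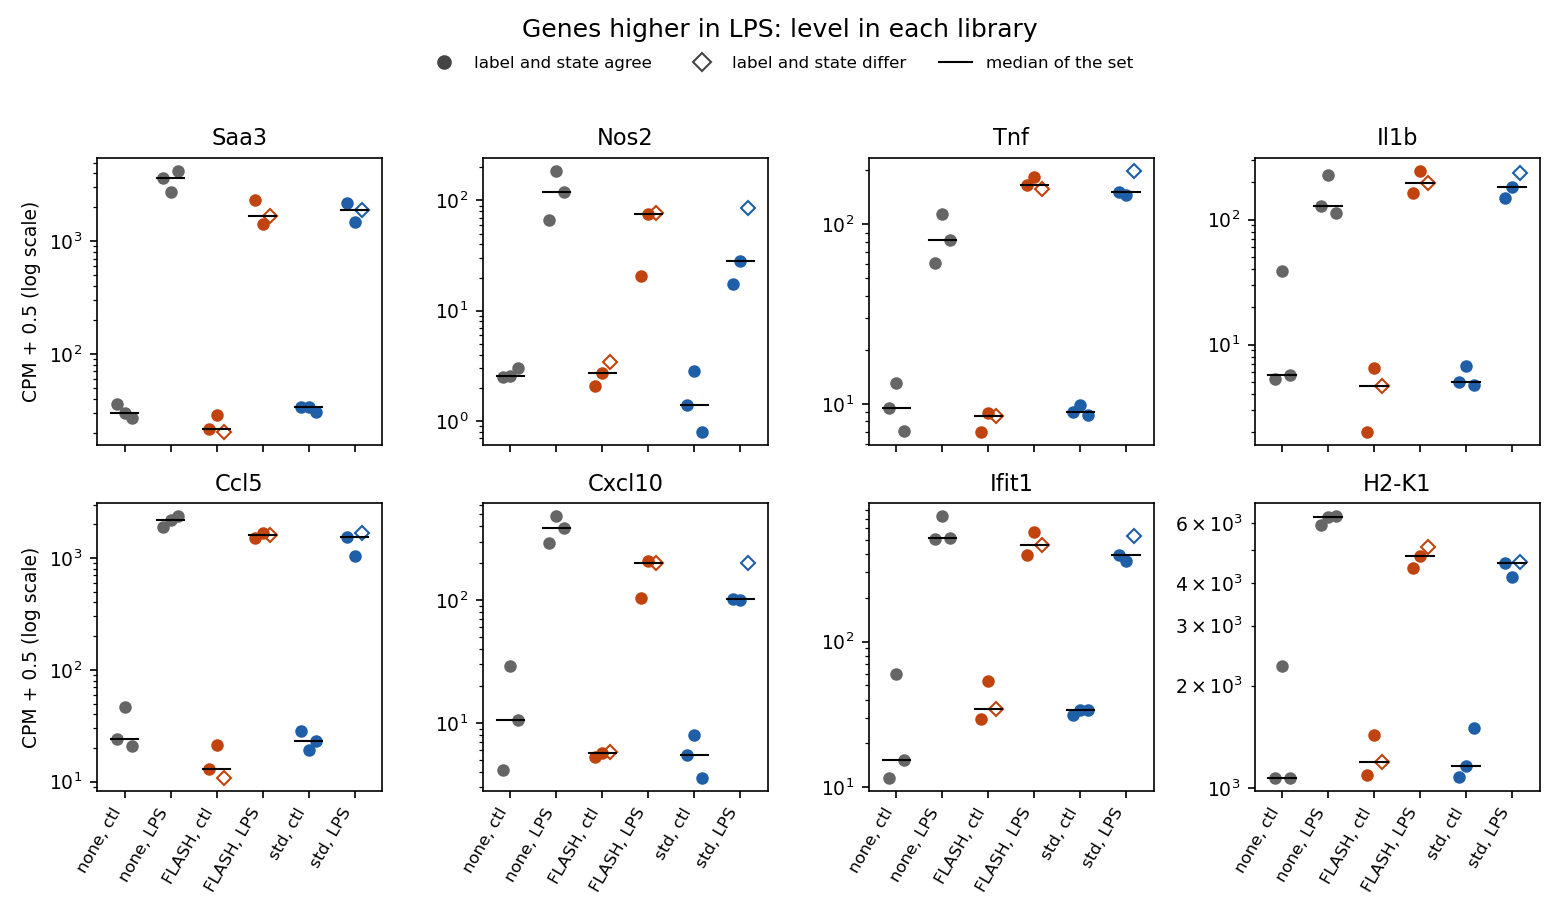
CPM + 0.5 on a log axis of genes higher after LPS, 1 panel per gene, with each library as a point: irradiated control state, irradiated LPS state, non-irradiated M0 and non-irradiated M1, and FLASH and standard libraries in different colours. Within each panel the 6 irradiated LPS-state points lie above the 6 control-state points, for example Saa3 at 1432 to 2337 CPM over 19.7 to 33.3 CPM.

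The deepest decrease was that of Mamdc2, with 0, 0.800 and 2.50 CPM in the LPS state and 39.0, 65.7 and 99.8 CPM in the control state (-5.65 ± 0.56, adjusted p = 5.76e-05). In the control state its 3 FLASH libraries (75.7 to 99.8 CPM) were all above its 3 standard libraries (39.0 to 55.7 CPM). Of these FLASH libraries, 1 is labelled M1 replicate 1 and was placed by the rule, and the difference between the modes in this state was not tested. Slco2b1, an organic anion transporter, had 1.52, 2.32 and 4.88 CPM against 55.1, 71.7 and 111 CPM (-4.71 ± 0.32). Cd9, a tetraspanin of the cell surface, had 42.8, 47.3 and 53.9 CPM against 419.9, 521 and 643 CPM (-3.36 ± 0.25). Atp6v0d2, a subunit of the lysosomal proton pump, had 92.8, 111 and 133 CPM against 959, 1157 and 1391 CPM (-3.39 ± 0.16). Other genes among the largest decreases were Hpgd, which inactivates prostaglandins (-3.43 ± 0.26), the phosphodiesterase Pde1c (-3.39 ± 0.28), the transcription factor Egr2 (-3.26 ± 0.28), Gprc5c (-3.54 ± 0.28) and the haemoglobin scavenger receptor Cd163 (-3.46 ± 0.37). These 9 genes too were chosen for no overlap in the tested libraries. The libraries numbered replicate 1, put into states by Irg1 and Arg1, lay on the same sides, which is again a description.

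**Figure D2:**
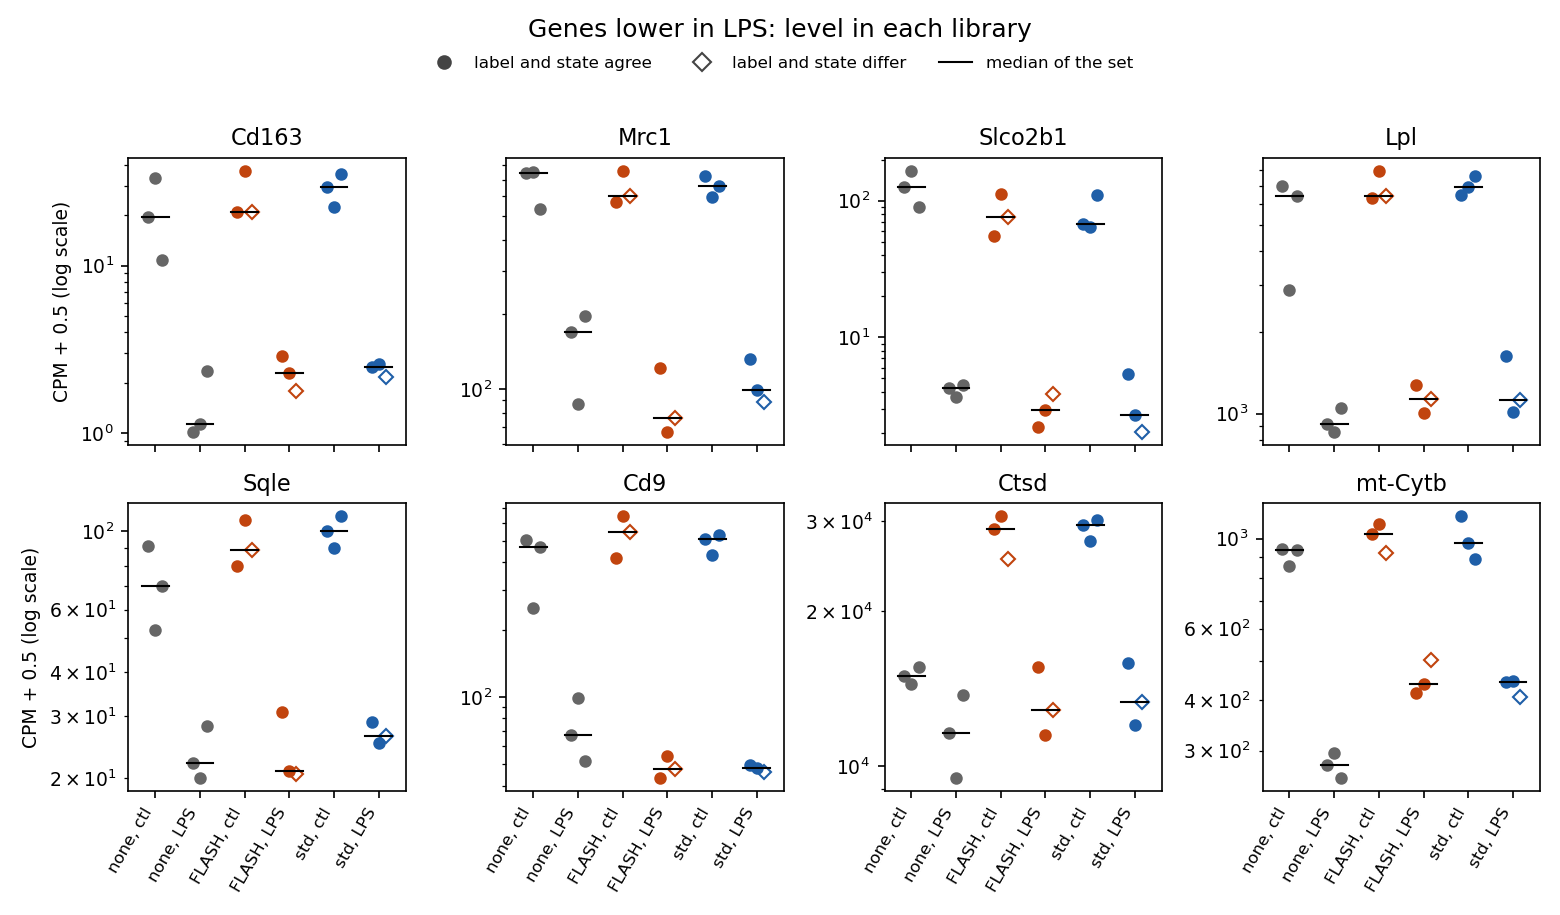
CPM + 0.5 on a log axis of genes lower after LPS, 1 panel per gene, each library a point, in the same groups and colours as the plot of genes higher after LPS. In each panel the 6 irradiated LPS-state points lie below the 6 control-state points, for example Cd9 at 42.8 to 53.9 CPM under 420 to 643 CPM.

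Genes of the receptor complex itself showed small changes. Of 16 genes for the TLR4 complex and its adaptors, all tested, 7 were called higher and 2 lower, with a median change of 0.21. Ticam2 (TRAM), the adaptor that links TLR4 to the interferon branch, had 69.4, 88.3 and 113 CPM against 22.5, 35.3 and 39.1 CPM (1.23 ± 0.19, adjusted p = 8.67e-04). Traf3, an adaptor of the same branch, rose by 1.10 ± 0.12. Cd14, which hands LPS to TLR4, had 388, 411 and 486 CPM against 117, 161 and 224 CPM without overlap (1.09 ± 0.35, adjusted p = 0.0389), but was not called in 8 of the 12 fits that each left out 1 library (adjusted p up to 0.109, without Standard M0 replicate 3), nor with the replicate number as a block (adjusted p = 0.0610). Tlr4 was lower by a small amount, with 71.1, 86.8 and 99.5 CPM against 92.1, 111 and 130.1 CPM, overlapping ranges and a change of -0.33 ± 0.11 (adjusted p = 0.0387). It was not called in 7 of the 12 fits that each left out 1 library (adjusted p up to 0.137, without Standard M0 replicate 2). The kinase Irak1 fell (-0.44 ± 0.08).

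Other pattern recognition receptors moved further, with 8 of 15 tested genes (16 listed) called higher and 3 lower. Tlr2, which binds bacterial lipopeptides, had 228, 267 and 358 CPM against 31.1, 48.7 and 58.1 CPM (2.47 ± 0.35, adjusted p = 5.40e-04). Marco, a scavenger receptor for bacteria, had 621, 897 and 914 CPM against 28.1, 59.2 and 124 CPM (3.95 ± 0.47). The beta-glucan receptor Clec7a (Dectin-1) fell, from 460.5, 584 and 739.8 CPM in the control state to 126, 163 and 191 CPM in the LPS state (-2.03 ± 0.17). The nucleic acid sensors Tlr8 (-0.57 ± 0.15) and Tlr13 (-0.35 ± 0.09) were lower. Tlr8 was not called in 2 of the 12 fits that each left out 1 library (adjusted p up to 0.0590, without Standard M0 replicate 2). Tlr13 was not called in 3 of the 12 fits that each left out 1 library (adjusted p up to 0.0537, without FLASH M1 replicate 3).

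NF-kappaB subunits and the inhibitors that NF-kappaB itself induces rose as a group: 17 of 22 were called higher, 1 lower, and the median change was 1.63. The feedback inhibitor Socs3, which blocks cytokine receptor signalling, had 76.8, 122 and 141 CPM against 3.12, 3.68 and 8.46 CPM (4.40 ± 0.31, adjusted p = 7.65e-06). Nfkbiz, an atypical IkappaB that drives secondary genes such as Il6 and Lcn2, had 72.1, 81.0 and 99.6 CPM against 4.67, 6.64 and 8.26 CPM (3.54 ± 0.28). Irak3 (IRAK-M), a brake on TLR signalling, had 211, 231 and 249.7 CPM against 20.03, 23.1 and 24.5 CPM (3.27 ± 0.17). All 3 rose without overlap of the states, and Irak3 varied little within either. The member called lower was Atf3, a repressor of inflammatory genes, with 225, 279.9 and 316 CPM against 432, 477 and 509 CPM (-0.81 ± 0.20).

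Of 18 tested cytokine genes (22 listed), 12 were called higher and none lower, with a median change of 1.47. Tnf had 144, 161 and 198 CPM in the LPS state and 6.47, 8.33 and 9.43 CPM in the control state (4.23 ± 0.19, adjusted p = 7.15e-07). Il1b, the precursor of interleukin 1 beta, had 148, 188 and 246 CPM against 1.49, 4.38 and 6.26 CPM (5.33 ± 0.57). Its partner Il1a had 296, 355 and 454 CPM against 11.0, 14.4 and 17.7 CPM (4.55 ± 0.47). These 3 were separated between the states in all 12 libraries. Cytokines of the secondary wave were called but stayed at low values 2 days after LPS: Il6 had 1.49, 3.07 and 4.96 CPM against 0, 0.0634 and 0.322 CPM (2.42 ± 0.33, adjusted p = 3.68e-04). Il12b had 0.785, 1.32 and 3.74 CPM against 0, 0.0645 and 0.280 CPM (1.46 ± 0.32). The anti-inflammatory Il10 had 4.01, 10.9 and 13 CPM against 0.622, 1.0 and 1.36 CPM (2.42 ± 0.41). For Il6 and Il12b most control-state values lay near 0, so their log2 changes depend on the 0.5 CPM added. The 6 tested genes not called were Il12a, Il15, Osm, Csf1, Tgfb1 and Il16.

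Of 21 tested chemokine ligands (24 listed), 16 were called higher and 1 lower, with a median of 2.81. Ccl12, a monocyte attractant, had 58.4, 76.6 and 112 CPM against 1.04, 1.60 and 2.85 CPM (5.23 ± 0.26, adjusted p = 1.41e-06). Cxcl9, an interferon-induced attractant of T cells, had 19.2, 41.5 and 50.2 CPM against 0.0975, 0.568 and 1.48 CPM (5.13 ± 0.58). Its relative Cxcl10 had 99.7, 152 and 208 CPM against 3.07, 5.12 and 7.42 CPM (4.49 ± 0.35). In the LPS state Cxcl10 was near 100 CPM in 3 libraries, FLASH M1 replicate 2 and Standard M1 replicates 2 and 3, and above 200 CPM in the other 3. Cxcl14 was the ligand called lower, with 4.35, 6.60 and 9.16 CPM against 20.3, 23.9 and 29.7 CPM (-1.80 ± 0.34). The receptors split evenly, 4 higher and 4 lower of 14 tested (15 listed). The higher ones besides Fpr1 and Fpr2 were Ccrl2 and Ccr7, the receptor that guides cells to lymph nodes, which was low at 0.702, 2.12 and 4.28 CPM against 0, 0.108 and 0.420 CPM (1.80 ± 0.47) and not called in 2 of the 12 fits that each left out 1 library (adjusted p up to 0.0550, without FLASH M1 replicate 3). Cxcr4, the receptor that retains cells in bone marrow, fell from 88.4, 105 and 150.4 CPM to 20.6, 23.4 and 33.8 CPM (-1.99 ± 0.24). The eotaxin receptor Ccr3 (-1.27 ± 0.24) and Ccr1 (-0.88 ± 0.22) fell as well.

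Effector genes followed. Leaving out Irg1, 18 of 23 genes for antimicrobial enzymes and secreted defence proteins were called higher and 1 lower. Nos2, the inducible nitric oxide synthase, had 16.9, 51.6 and 85.6 CPM in the LPS state and 0.292, 1.92 and 2.95 CPM in the control state (3.97 ± 0.47, adjusted p = 1.63e-04). Nos2 spread more than 5-fold within the LPS state, with FLASH M1 replicate 2 and Standard M1 replicates 2 and 3 at 16.9 to 28.0 CPM and the other 3 libraries at 75.2 to 85.6 CPM. Even its lowest LPS-state library was more than 5-fold above the highest control-state library. Ptgs2 (COX-2), which makes prostaglandins, had 55.7, 97.5 and 140.1 CPM against 0.539, 5.19 and 6.19 CPM (4.61 ± 0.49). Lcn2, which withholds iron from bacteria, had 30.5, 117 and 142 CPM against 1.73, 2.55 and 6.20 CPM (4.36 ± 0.56). The 2 lowest Lcn2 values of the LPS state were those of FLASH M1 replicate 2 and Standard M1 replicate 2, which were also low in Nos2 and share a code in their titles. These 2 libraries also stood apart within the LPS state in summed levels, with neutrophil markers (Lcn2 included) at 175 and 192 CPM against 337 to 414 CPM, lysosomal enzymes at 56807 and 56737 CPM against 43134 to 49038 CPM and lipid genes at 9381 and 10164 CPM against 6663 to 7335 CPM. The part of the code in the results was not tested beyond the fit with the replicate number as a block. The collagenase Mmp13 was the member called lower (-0.92 ± 0.16).

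All 30 antiviral interferon-stimulated genes on the list were tested and called higher. Their median change was 2.40, with a range of 0.69 to 4.94. The list, like the others, was written with earlier results of these data known, so this count is a description. Ifit1, which binds viral RNA caps, had 356, 426 and 563 CPM against 28.7, 33.5 and 53.3 CPM (3.52 ± 0.37, adjusted p = 8.56e-05). Oasl1, which inhibits translation of Irf7, had 285, 310.1 and 359 CPM against 10.1, 11.1 and 16.4 CPM (4.66 ± 0.19). Ifi205, of the DNA-sensor family on chromosome 1, had 332, 415 and 556 CPM against 7.33, 12.3 and 14.6 CPM (4.94 ± 0.39). Gm14446 (Ifit1bl1) had 133, 241 and 434 CPM against 3.4, 5.93 and 12.3 CPM (4.88 ± 0.39). Ifi204 and Ifi205, and the Ifit genes, are close copies of each other, so the split of reads between them is uncertain. Of the factors that carry the interferon signal, 9 of 17 tested (18 listed) were called higher and none lower. Irf7, the factor that amplifies interferon production, had 1399, 1826 and 1967 CPM against 62.7, 79.1 and 108 CPM (4.28 ± 0.49). Batf2 had 14.0, 17.8 and 22.7 CPM against 3.73, 4.35 and 5.77 CPM (1.76 ± 0.14). The 8 factors not called included the receptor chains Ifnar1, Ifnar2 and Ifngr1, and Jak1, Irf2, Irf3, Irf5 and Irf8. Interferon-inducible GTPases, which attack the vacuoles of intracellular pathogens, were called higher in 14 of 16 (18 listed), with a median of 2.29. Tgtp2 had 109, 157 and 209.5 CPM against 4.07, 7.02 and 16.6 CPM (4.02 ± 0.24), Iigp1 104, 127 and 191 CPM against 6.80, 7.83 and 9.22 CPM (3.80 ± 0.11), and Gbp5 123, 176 and 285 CPM against 8.58, 12.1 and 15.8 CPM (3.50 ± 0.21). The families are near-identical copies in part (Tgtp1 and Tgtp2 among them), and their members' values are uncertain to that extent.

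Stretches of the promoters are shown because both branches of TLR4 signalling have short DNA motifs that can be read directly. The windows below were picked for holding a motif, 8 from genes called higher and 1 (Cxcl14) from a gene called lower. RefSeq start sites on GRCm38.p6 gave windows from 250 bases before to 50 after the start for 10289 of the tested genes, and each was searched on both strands for the interferon-stimulated response element (GAAA, any 2 bases, GAAA) and for the NF-kappaB consensus. Capitals mark the motif letters, read 5′ to 3′ in the direction of the gene, with 15 bases on either side; motifs may overlap.
Ifit1 (chr19:34640770-34640828, plus strand; elements 104 and 85 bases before the start): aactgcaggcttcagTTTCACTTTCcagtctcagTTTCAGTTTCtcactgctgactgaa
Gbp5 (chr3:142496754-142496793, plus strand; element 165 bases before the start): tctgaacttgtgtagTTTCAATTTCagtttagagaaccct
Tgtp2 (chr11:49064258-49064297, minus strand; element 70 bases before the start): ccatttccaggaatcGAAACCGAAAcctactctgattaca
Cxcl10 (chr5:92348968-92349117, minus strand; element 213, NF-kappaB motifs 159 and 103 bases before the start): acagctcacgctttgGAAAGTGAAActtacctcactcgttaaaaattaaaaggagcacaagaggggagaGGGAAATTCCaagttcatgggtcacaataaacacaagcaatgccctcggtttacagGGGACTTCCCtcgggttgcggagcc
H2-T22 (chr17:36042909-36042970, minus strand; NF-kappaB motif 213, element 191 bases before the start): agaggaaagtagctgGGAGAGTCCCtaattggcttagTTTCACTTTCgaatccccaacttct
H2-K1 (chr17:34000433-34000473, minus strand; overlapping NF-kappaB motifs 125 and 124 bases before the start): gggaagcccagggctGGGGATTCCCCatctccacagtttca
Il6 (chr5:30013055-30013094, plus strand; NF-kappaB motif 44 bases before the start): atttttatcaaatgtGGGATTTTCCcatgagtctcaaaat
Saa3 (chr7:46715777-46715816, minus strand; element 125 bases before the start): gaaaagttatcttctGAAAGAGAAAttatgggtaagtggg
Cxcl14 (chr13:56296699-56296738, minus strand; element 172 bases before the start): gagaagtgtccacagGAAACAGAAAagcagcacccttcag

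Some windows carry the element in its reverse orientation, as TTTC on the gene's strand in Ifit1 and Gbp5. In named genes, only the motifs set for the list or marker set that named the gene were marked. Antiviral genes and GTPases outside the marker set were thus marked for the element alone. Of 69 named genes treated in this way, 51 had a window and 17 of these a motif. Windows on the chromosome of Iigp1 and Csf1r were left out of this marking, so named genes there count as without a window. The shares below include that chromosome. The window of Mmp13, called lower, held the element. Those of Tnf, Il1b and Irf7, all called higher, held neither motif, and that of Oasl1, also called higher, did not hold the element. The element was found in 3.99% of the 27018 promoter windows of all genes, in 7.48% of 1817 windows of genes called higher, in 2.54% of 1729 windows of genes called lower and in 3.49% of 6743 windows of genes not called. Among list members with a window it was present in 13 of 21 antiviral genes and 9 of 10 GTPases. The NF-kappaB consensus was in 5.14% of all windows, 7.71% of those called higher, 7.17% of those called lower and 5.86% of those not called, so its share was similar for both directions. It was present in 8 of 19 NF-kappaB pathway genes, 5 of 13 cytokines and 5 of 14 chemokine ligands. A match describes these letters in these windows and is not evidence of binding.

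Antigen presentation through MHC class I rose broadly, with 17 of 18 genes called higher and a median of 1.39. H2-K1, a classical class I heavy chain, had 4170.4, 4599 and 5107 CPM against 1079, 1179 and 1502 CPM (1.80 ± 0.21, adjusted p = 1.25e-04). Among non-classical genes, H2-Q7 had 174, 197 and 292 CPM against 4.52, 5.33 and 7.80 CPM (4.99 ± 0.39), H2-Q4 477, 621 and 727 CPM against 41.9, 47.7 and 64.7 CPM (3.40 ± 0.25) and H2-T22 548, 638 and 743 CPM against 78.7, 89.4 and 118 CPM (2.61 ± 0.18). Class I genes are polymorphic close copies, so reads may be split between them. Tap1, the peptide transporter, rose by 1.87 ± 0.11, and the member not called was the class I transactivator Nlrc5. MHC class II differed: of 10 genes, 1 (H2-Oa, 1.20 ± 0.29) was called higher and none lower. The H2-Oa change ran from 0.71 to 2.50 over the alternative fits, so its size depends on the processing. H2-Aa stood at 16.4, 21.0 and 22.7 CPM against 10.4, 16.4 and 22.2 CPM, overlapping, with a change of 0.11 ± 0.15 (adjusted p = 0.645).

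Of 15 tested costimulatory and checkpoint ligands (16 listed), 8 were called higher and 2 lower. Cd40, which receives help from T cells, had 40.4, 53.1 and 71.3 CPM against 2.35, 6.13 and 7.26 CPM (3.06 ± 0.32, adjusted p = 6.44e-05). Cd274 (PD-L1), a T cell inhibitor, had 527, 733 and 947 CPM against 57.7, 65.4 and 77.2 CPM (3.22 ± 0.20). Tnfsf9 (4-1BB ligand) had 4.96, 5.85 and 5.95 CPM against 0.456, 0.836 and 1.26 CPM (2.32 ± 0.24). Cd86 had 18.7, 41.2 and 55.4 CPM against 7.04, 11.7 and 13.6 CPM without overlap, yet its change of 1.14 ± 0.43 was not called (adjusted p = 0.0659). The checkpoint protein VISTA (Vsir, listed as 4632428N05Rik) fell from 608, 665 and 687 CPM to 169.7, 219.8 and 273 CPM (-1.49 ± 0.17), and the inhibitory receptor Cd200r1 fell (-0.67 ± 0.08).

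Inflammasome genes were called higher in 9 of 14 and lower in 1. Nlrp3, the sensor whose transcription is the priming step of this complex, had 117, 159.7 and 191 CPM against 14.4, 20.7 and 25.2 CPM (2.71 ± 0.25, adjusted p = 3.54e-05). Mefv (pyrin) had 66.0, 71.6 and 75.8 CPM against 2.77, 3.67 and 6.06 CPM (3.75 ± 0.38). Casp4 (caspase-11), which binds LPS in the cytosol, had 74.5, 90.6 and 113 CPM against 13.9, 16.8 and 21.4 CPM (2.30 ± 0.17). Txnip was lower by -0.76 ± 0.20 with overlapping ranges, and was not called in 2 of the 12 fits that each left out 1 library (adjusted p up to 0.0592, without FLASH M0 replicate 2). Complement genes moved in both directions, with 4 higher and 2 lower of 14 tested (15 listed), beside 17.5% and 16.6% of all tested genes. Factor B (Cfb) had 434, 565 and 633 CPM against 18.3, 19.2 and 21.4 CPM (4.74 ± 0.16) and C3 294, 533 and 563 CPM against 15.9, 25.2 and 31.1 CPM (4.08 ± 0.53), both parts of the alternative pathway. Cd55, which dissolves the C3 convertase on host cells, rose by 3.18 ± 0.49. Itgax (CD11c), an integrin that binds complement fragments, fell from 328, 506 and 669.5 CPM to 44.8, 56.5 and 85.8 CPM (-2.96 ± 0.43).

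**Figure D3:**
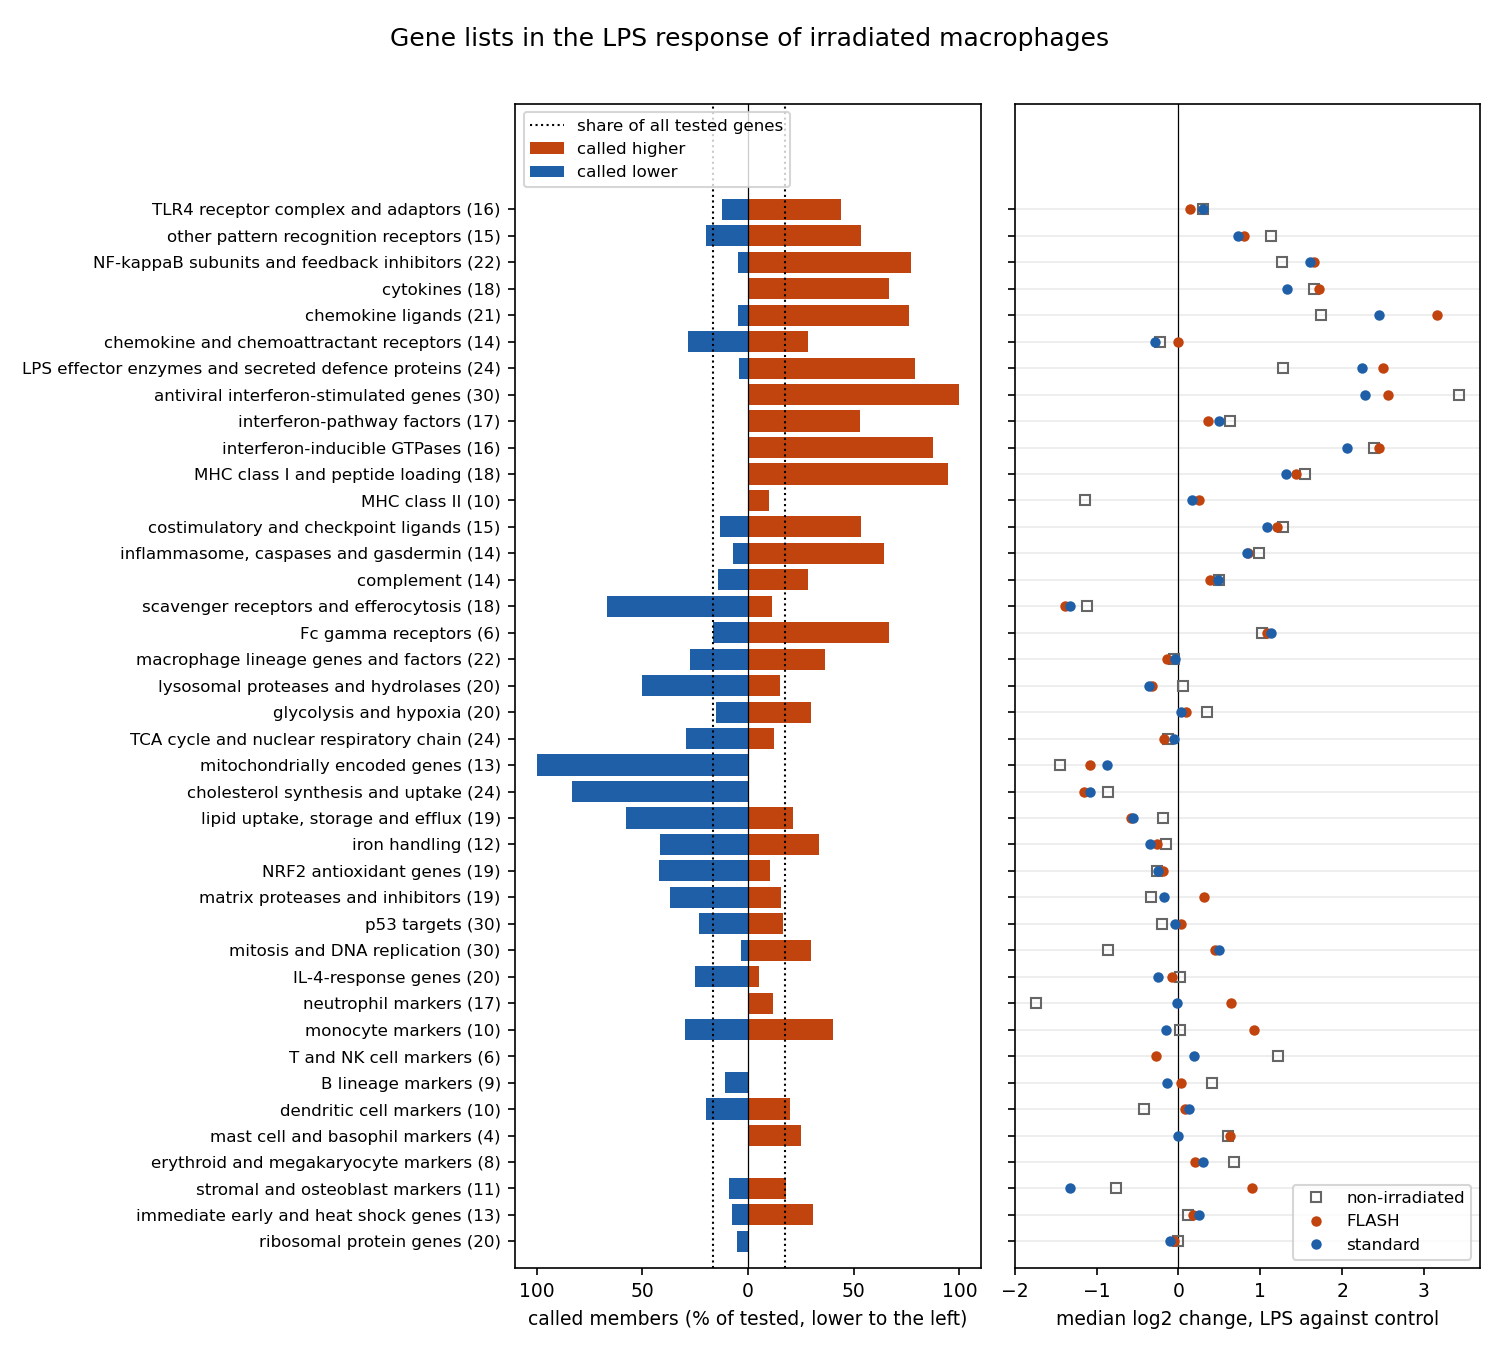
Left, percent of the tested members of each gene list (number in brackets) called higher (right of 0) or lower (left of 0) in irradiated cells, with dotted lines at the share of all tested genes (17.5% and 16.6%); right, median log2 change of each list in FLASH, standard and non-irradiated libraries. All 30 antiviral genes lie to the right and all 13 mitochondrially encoded genes to the left.

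Receptors for uptake of dead cells and self ligands fell: of 18 tested scavenger and efferocytosis genes (20 listed), 12 were called lower and 2 higher, with a median of -1.31. Mrc1, the mannose receptor, had 66.3, 93.5 and 132 CPM in the LPS state and 568, 631 and 761 CPM in the control state (-2.66 ± 0.27, adjusted p = 6.73e-05). Cd163 had 1.29, 1.88 and 2.38 CPM against 20.4, 25.5 and 36.4 CPM, and Vsig4, a receptor for complement-coated particles, 1.36, 3.54 and 4.32 CPM against 16.0, 21.8 and 23.5 CPM (-2.90 ± 0.58). The 2 called higher were Siglec1 (sialoadhesin), at 602, 629 and 985 CPM against 218, 299.9 and 393 CPM (1.18 ± 0.32), and Msr1 (0.58 ± 0.18). Siglec1 was not called in 4 of the 12 fits that each left out 1 library (adjusted p up to 0.0666, without Standard M1 replicate 2). Msr1 was not called in 4 of the 12 fits that each left out 1 library (adjusted p up to 0.116, without Standard M0 replicate 2). Fc gamma receptor genes were called higher in 4 of 6 and lower in 1. Fcgr1, the high-affinity receptor for IgG, had 694, 976 and 1013 CPM against 115, 157 and 190.3 CPM (2.39 ± 0.13). The inhibitory Fcgr2b (1.26 ± 0.20) and the cytosolic antibody receptor Trim21 (1.28 ± 0.15) rose, and Fcgr3 fell (-0.98 ± 0.12).

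Macrophage lineage genes showed no common direction, with 8 higher, 6 lower and 8 not called of 22. Emr1 (Adgre1), the classical surface marker of mouse macrophages, had 4305, 5092 and 5964 CPM against 1318, 1472 and 1976 CPM (1.64 ± 0.23, adjusted p = 4.67e-04). Csf1r, the receptor for the growth factor in the medium, had 886, 1032 and 1127 CPM against 1018, 1213 and 1604 CPM, overlapping, with -0.34 ± 0.25 (adjusted p = 0.329). The C/EBP factors moved in opposite directions: Cebpd had 31.1, 33.4 and 36.6 CPM against 6.72, 8.42 and 9.89 CPM (1.96 ± 0.19), and Cebpa, which drives myeloid differentiation, 89.6, 117 and 134 CPM against 433, 469 and 542 CPM (-2.07 ± 0.15). Batf had 31.5, 37.6 and 44.5 CPM against 3.03, 3.55 and 4.14 CPM (3.14 ± 0.25), and the calcium-binding protein Aif1 rose by 2.48 ± 0.21. The repressor Bhlhe40 fell (-1.50 ± 0.21).

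Lysosomal enzymes were called lower in 10 of 20 and higher in 3. Lipa, the acid lipase that frees cholesterol in lysosomes, had 1041, 1153 and 1310.5 CPM against 2963, 3135 and 3737 CPM (-1.48 ± 0.12, adjusted p = 1.23e-05). Cathepsin D (Ctsd) had 11459, 13069.8 and 15846 CPM against 25337, 29152 and 30629.7 CPM (-1.11 ± 0.16), and Tfeb, a master factor of lysosome genes, 23.4, 30.1 and 32.3 CPM against 50.1, 52.6 and 65.8 CPM (-0.95 ± 0.11). Cathepsin C (Ctsc), which activates granule proteases, went the other way, with 1605, 1749 and 1813 CPM against 249, 262 and 300.3 CPM (2.71 ± 0.15). Ctsz (0.71 ± 0.10) also rose.

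The 13 mitochondrially encoded genes, which specify respiratory chain subunits, were all called lower, with a median change of -0.96. mt-Cytb had 406, 440.1 and 501 CPM in the LPS state and 889.7, 1000.5 and 1135 CPM in the control state (-1.19 ± 0.08, adjusted p = 6.81e-06). The NADH dehydrogenase subunits mt-Nd3 (-1.18 ± 0.11) and mt-Nd6 (-1.11 ± 0.10) fell as well. Their summed level was 7780.4 to 8928 CPM in the LPS state and 11436 to 15405 CPM in the control state, without overlap. This sum is also used as a sign of RNA or cell quality, and its part in the other results was not tested. Nuclear genes of the TCA cycle and respiratory chain changed less: 3 of 24 were called higher, 7 lower, and the median was -0.13. Their summed level was 3701 to 3955 CPM in the LPS state and 4173 to 4287 CPM in the control state, also without overlap. The list holds Idh1, the cytosolic isocitrate dehydrogenase, which lies outside the TCA cycle and counts among the genes called lower. It had 123, 149 and 162 CPM against 372, 431 and 485 CPM (-1.57 ± 0.11). The mitochondrial Idh2 was called lower (-0.49), but not with the replicate number as a block (adjusted p = 0.0609). For complex IV, the subunit gene Cox4i1 fell (-0.59 ± 0.08) and the subunit gene Cox5a rose (0.78 ± 0.11). Ribosomal protein genes gave 1 of 20 called (Rpl10a, -1.0 ± 0.15). The values had been scaled by TMM, so a global shift in RNA content cannot be read from them.

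Glycolysis genes were mixed, with 6 higher and 3 lower of 20, beside 17.5% and 16.6% of all tested genes, and a median of 0.08. Pfkfb3, which raises the flux through phosphofructokinase, had 267, 364 and 418 CPM against 112, 141 and 176 CPM (1.17 ± 0.25, adjusted p = 0.00523). Hif1a, the hypoxia factor that LPS is known to raise, had 134, 192 and 205 CPM against 99.1, 106 and 126 CPM (0.70 ± 0.16), and Hk2 rose by 0.69 ± 0.09 with ranges that overlapped across the 6 and 6. Pdk1, which shuts pyruvate out of the TCA cycle, fell from 38.0, 50.2 and 63.5 CPM to 13.3, 18.3 and 23.3 CPM (-1.67 ± 0.23). Aldoa (-0.40 ± 0.11) and Pgam1 (-0.42 ± 0.13) were called lower, but Aldoa was not called in 4 of the 12 fits that each left out 1 library (adjusted p up to 0.0720, without FLASH M1 replicate 3). Pgam1 was not called in 7 of the 12 fits that each left out 1 library (adjusted p up to 0.128, without FLASH M1 replicate 3).

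Cholesterol synthesis and uptake genes fell together: 20 of 24 were called lower, none higher, and the median was -1.12. Sqle, the squalene epoxidase, had 20.02, 25.2 and 30.2 CPM against 79.3, 94.4 and 109.8 CPM (-1.88 ± 0.18), and Msmo1 43.7, 54.0 and 65.2 CPM against 148, 166 and 202 CPM (-1.63 ± 0.15). Both separated the states in every library. The 4 genes not called were Mvk, Pmvk, Lss and Ebp. The sterol element TCACNCCAC was present in 1 of 17 promoter windows of these genes and in 1.44% of all windows. Lipid uptake and storage genes were called lower in 11 of 19 and higher in 4. Lipoprotein lipase (Lpl) had 1007, 1129.6 and 1642 CPM against 6329.7, 6709 and 7978 CPM (-2.57 ± 0.25), Apoe 808, 1491 and 2110.1 CPM against 3592, 5776 and 8718 CPM (-2.0 ± 0.29) and Angptl4, an inhibitor of lipoprotein lipase, 1.74, 1.99 and 2.98 CPM against 12.1, 14.2 and 19.4 CPM (-2.61 ± 0.20). Against this, Acsl1, which activates fatty acids, had 311, 375 and 419 CPM against 50.1, 53.5 and 64.9 CPM (2.69 ± 0.11). The oxysterol receptor Nr1h3 (LXR alpha) rose by 1.59 ± 0.18. Apoc2 was called higher (0.82 ± 0.22) and was not called in 1 of the 12 fits that each left out 1 library (adjusted p up to 0.0572, without Standard M0 replicate 3).

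Iron genes went both ways, with 4 higher and 5 lower of 12 tested (14 listed). Ferritin heavy chain (Fth1) had 28028, 32087 and 34392 CPM against 11377, 12663 and 15117 CPM (1.26 ± 0.15, adjusted p = 1.72e-04). The transferrin receptor Tfrc fell from 1902, 2458 and 3151 CPM to 287, 414 and 481 CPM (-2.44 ± 0.18), and the iron exporter Slc40a1 (ferroportin) from 791, 843 and 1023 CPM to 202, 233 and 392 CPM (-1.66 ± 0.30). Slc11a1, which encodes the metal transporter NRAMP1, rose by 0.91 ± 0.10 in RNA, and its function was not measured. Haem oxygenase (Hmox1) had 1321, 1773 and 1999.6 CPM against 857, 1099 and 1683 CPM, overlapping across the 6 and 6, with 0.86 ± 0.10. Antioxidant genes of the NRF2 pathway were called higher in 2 of 19, Hmox1 and Gsr (0.37 ± 0.11), and lower in 8. Gsr was not called in 7 of the 12 fits that each left out 1 library (adjusted p up to 0.103, without Standard M1 replicate 3). Catalase (Cat) had 180.1, 203 and 219 CPM against 500.4, 543 and 685 CPM (-1.50 ± 0.12), and Taldo1 of the pentose phosphate pathway (-0.99 ± 0.09) and Gstm1 (-0.86 ± 0.14) fell.

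Matrix proteases and their inhibitors were called higher in 3 of 19 and lower in 7. Macrophage elastase (Mmp12) fell from 2714, 4561 and 5665 CPM to 249, 368 and 524 CPM (-3.21 ± 0.32, adjusted p = 5.36e-05), and its family member Mmp14 rose from 71.6, 86.2 and 113 CPM to 661, 741 and 762 CPM (2.92 ± 0.26). The inhibitor Timp2 fell (-1.35 ± 0.13). Fibronectin (Fn1) fell (-1.37 ± 0.35) and was not called in 2 of the 12 fits that each left out 1 library (adjusted p up to 0.0510, without FLASH M0 replicate 2). Adam17, the sheddase that releases TNF, was called higher (0.50 ± 0.17) and was not called in 7 of the 12 fits that each left out 1 library (adjusted p up to 0.148, without Standard M0 replicate 3), nor with the replicate number as a block (adjusted p = 0.0618).

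Genes that p53 activates after DNA damage are of interest because the precursors were irradiated, but both states compared here had been. Of 30, 5 were called higher and 7 lower, beside 17.5% and 16.6% of all tested genes, so these counts do not set the list apart. Cdkn1a (p21) had 517, 636 and 771 CPM against 478, 561 and 652 CPM, overlapping, with a change of 0.05 ± 0.13 (adjusted p = 0.805). Phlda3 fell from 156, 160.3 and 182 CPM to 71.7, 88.7 and 109 CPM (-0.90 ± 0.12), Ephx1 from 97.5, 113 and 131 CPM to 16.1, 18.5 and 22.3 CPM (-2.66 ± 0.17) and Sesn1 from 178, 198 and 222 CPM to 46.4, 57.0 and 63.8 CPM (-1.73 ± 0.20). Trp53inp1 fell (-1.21 ± 0.09). Fas, a death receptor, rose by 1.67 ± 0.29, Aen by 0.50 ± 0.11, and Mdm2, the ubiquitin ligase of p53, by 0.47 ± 0.16 (adjusted p = 0.0490). Mdm2 was not called in 8 of the 12 fits that each left out 1 library (adjusted p up to 0.174, without FLASH M1 replicate 3). Tap1 is on this list as well as among the MHC genes.

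Mitosis and replication genes were called higher in 9 of 30 and lower in 1, with a median of 0.46. Their summed level did not rise. It was 1307 to 1684 CPM (median 1468) in the LPS state and 1492 to 1932 CPM (median 1624) in the control state, overlapping. Cdc6, which licenses replication origins, had 9.59, 15.6 and 24.6 CPM against 5.07, 6.62 and 7.70 CPM (1.05 ± 0.24, adjusted p = 0.00742). Tpx2, a spindle assembly factor, had 21.0, 51.0 and 58.3 CPM against 13.1, 17.2 and 21.6 CPM (1.03 ± 0.33). The LPS-state Tpx2 values of FLASH M1 replicate 2 and Standard M1 replicate 2 (22.5 and 21.0 CPM) lay at the level of the control state and the other 4 at 50.3 to 58.3 CPM. It was not called in 7 of the 12 fits that each left out 1 library (adjusted p up to 0.115, without Standard M1 replicate 3). Bub1 was called higher (1.02 ± 0.29) and was not called in 5 of the 12 fits that each left out 1 library (adjusted p up to 0.0871, without FLASH M1 replicate 3). Pcna, the sliding clamp of replication and repair, was the member called lower, at 273, 295 and 325 CPM against 509.7, 591 and 717 CPM (-1.05 ± 0.18).

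Genes of the IL-4 response served as a check of the other state. Leaving out Arg1, 1 of 19 tested genes was called higher and 5 lower. Retnla, an IL-4 marker, had 13.1, 20.4 and 26.5 CPM against 7.46, 22.2 and 33.2 CPM (-0.11 ± 0.20, adjusted p = 0.714), and Egr2, a factor that IL-4 induces, 1.83, 1.93 and 3.51 CPM against 21.4, 24.7 and 31.0 CPM. The IL-4 receptor chain Il4ra rose by 0.98 ± 0.11. Markers of other cells gave the following counts, to be read beside 17.5% called higher and 16.6% called lower over all tested genes. Neutrophil markers had 2 of 17 called higher, Lcn2 and Csf3r (1.07 ± 0.26), and a summed level of 175 to 414 CPM in the LPS state and 119.8 to 259.7 CPM in the control state, Lcn2 included. The granule genes Elane, Prtn3, Ctsg and Retnlg were below 2 CPM in all 12 libraries, so this sum came mostly from other markers of the list. Of the 17 markers, 2 were under 1 CPM in all 12 libraries. Monocyte markers had 4 higher and 3 lower of 10. Ly6c2 had 11.3, 16.0 and 22.7 CPM against 0.187, 1.15 and 2.77 CPM (3.45 ± 0.17), and F13a1 fell (-2.04 ± 0.24). Ccr2, which defines inflammatory monocytes, was at 1.98, 3.41 and 4.61 CPM against 1.91, 4.40 and 7.38 CPM (-0.82 ± 0.24) and not called in 4 of the 12 fits that each left out 1 library (adjusted p up to 0.0867, without Standard M0 replicate 2). Of the T and NK cell markers 0 of 6 tested were called (12 listed, 8 under 1 CPM in all 12 libraries), of the erythroid and megakaryocyte markers 0 of 8. B lineage markers had 1 of 9 lower (Ighm, -0.95 ± 0.30), which was not called in 6 of the 12 fits that each left out 1 library (adjusted p up to 0.0961, without FLASH M1 replicate 3). Dendritic cell markers had 2 higher and 2 lower of 10, among them Bst2 (2.29 ± 0.33), which is also an interferon-stimulated gene, and Batf3 (-1.18 ± 0.27). Mast cell markers had 1 of 4 higher (Hdc, 1.84 ± 0.45). The Hdc change ran from 1.30 to 2.53 over the alternative fits, and the list's summed level was at most 10.0 CPM in the LPS state. Stromal markers had 2 higher and 1 lower of 11: Dcn (1.52 ± 0.46), Pecam1 (1.55 ± 0.47) and Runx2 (-1.53 ± 0.22). Their sum was 67.1 to 142 CPM in the LPS state and 33.2 to 520.5 CPM in the control state. Dcn was not called in 5 of the 12 fits that each left out 1 library (adjusted p up to 0.0956, without FLASH M0 replicate 3). Pecam1 was not called in 6 of the 12 fits that each left out 1 library (adjusted p up to 0.112, without FLASH M1 replicate 3). The part of other cells in the results was not tested. Immediate early genes, which handling can raise, had 4 higher and 1 lower of 13, with Ier3 at 2.13 ± 0.19, Junb at 0.90 ± 0.10, Ier2 at 0.57 ± 0.13 and Jun at -0.40 ± 0.09.

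Dose rate was compared next. The LPS response was called for 2938 genes after FLASH (22.4%; 1436 or 11.0% higher, 1502 or 11.5% lower) and for 2395 after standard irradiation (18.3%; 1268 or 9.68% higher, 1127 or 8.60% lower), each with 2 libraries per state. The difference of the 2 responses was called for 0 of 13100 genes (0.00% in either direction) by limma, with 415 at an unadjusted p under 0.05. Of the called genes, 2007 were shared in the same direction, 68.3% of the FLASH list and 83.8% of the standard list, and 4 were called in opposite directions. Nos2 rose by 4.05 ± 0.67 after FLASH and 3.88 ± 0.67 after standard irradiation, and the 95% interval of the difference was -1.94 to 2.28. Saa3 rose by 6.20 ± 0.28 and 5.80 ± 0.28 (interval -0.49 to 1.28), Tnf by 4.46 ± 0.27 and 3.99 ± 0.27 (-0.37 to 1.32), Il1b by 5.80 ± 0.81 and 4.86 ± 0.81 (-1.63 to 3.51), Cxcl10 by 4.74 ± 0.50 and 4.25 ± 0.50 (-1.09 to 2.08) and Ifit1 by 3.58 ± 0.53 and 3.46 ± 0.53 (-1.56 to 1.79). Mrc1 changed by -2.87 ± 0.39 and -2.45 ± 0.39 (-1.64 to 0.81). Of 192 named genes, 8 had an interval that left out 0, with no adjustment for their number. They were the 5 genes with the smallest p below and 3 others: Ptgs2, with a difference of 2.42 (0.23 to 4.60), Tgtp2 with 1.37 (0.28 to 2.46) and Ly6c2 with 0.82 (0.05 to 1.59), each higher after FLASH and not called. These intervals bound how far the modes could differ, and they do not show that the modes act alike: the median half-width was 0.74 log2 over all genes and 1.23 over the 388 called genes with a change of at least 4-fold, of which 65 (16.8%) had an interval within 1 log2 of 0.

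The 5 genes with the smallest p for the difference between modes were Thbs2, Golgb1, Vash2, Grem1 and Col2a1, none of them called. Grem1, a secreted BMP inhibitor of stromal cells, was at 20.5 and 19.6 CPM in FLASH M1 replicates 2 and 3, and at 4.95 to 7.82 CPM in the other 4 LPS-state libraries, FLASH replicate 1 by the rule (6.11 CPM) included. Vash2 had 0.444 CPM in both tested FLASH LPS libraries against 4.0 and 4.48 CPM in the FLASH control libraries, and 1.94 and 2.90 CPM against 2.24 and 2.53 CPM after standard irradiation. The difference was -2.33 (interval -3.28 to -1.37). The library of the LPS state labelled Standard M2 replicate 1, at 0.565 CPM, lay with the FLASH libraries. For Golgb1, a Golgi matrix protein, the difference was -1.36 (interval -1.89 to -0.82), and the values of the 6 LPS-state libraries were 65.6 to 80.8 CPM for FLASH and 68.4 to 106 CPM for standard.

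**Figure D4:**
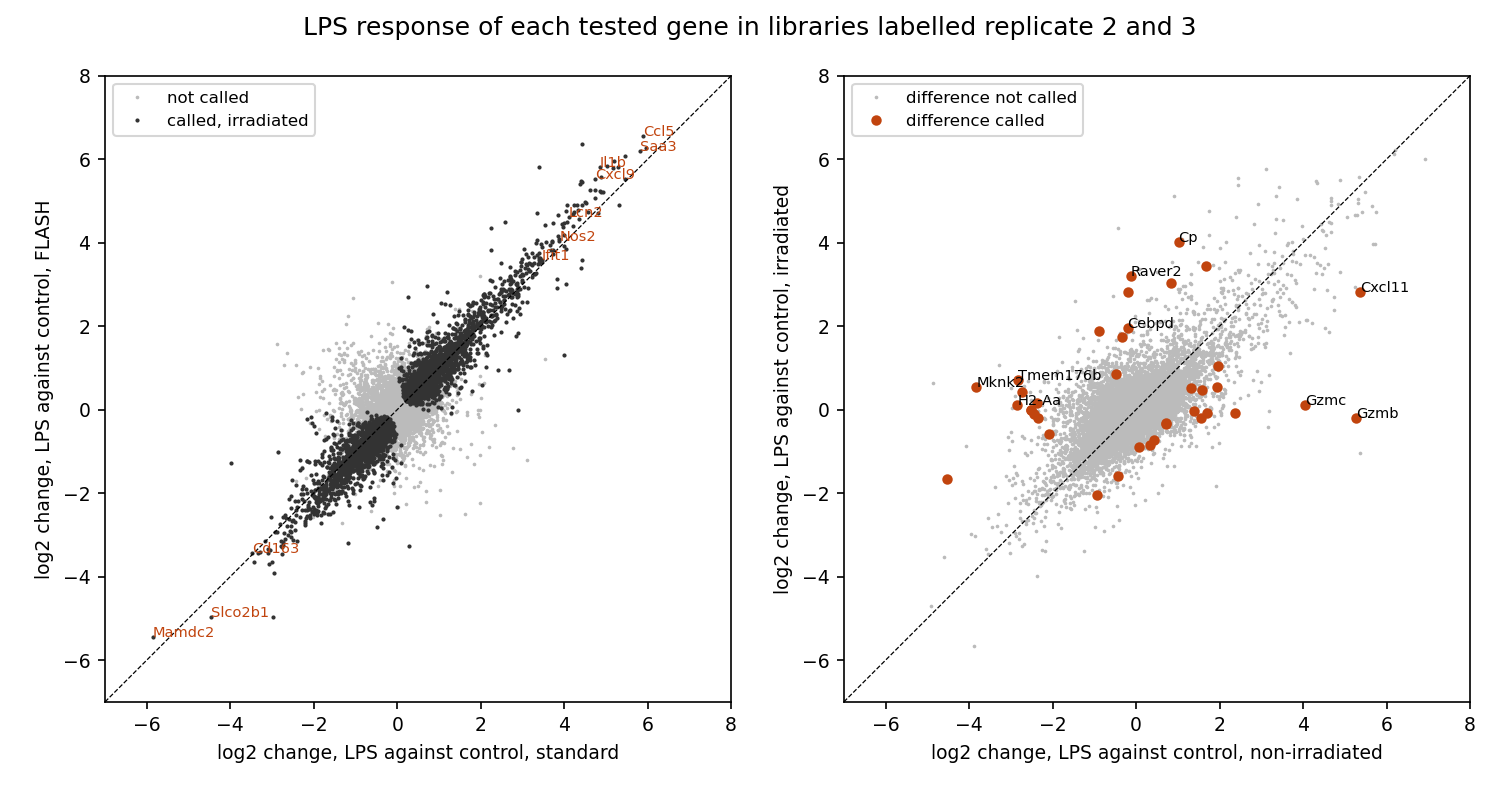
Each point is a tested gene. Left, log2 change after LPS in FLASH (vertical) against standard (horizontal) libraries, called genes dark; right, irradiated (vertical) against non-irradiated (horizontal), genes whose difference was called in colour. Points left follow the diagonal (r = 0.82 across genes, which are not independent replicates), and 38 genes are coloured on the right.

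Non-irradiated macrophages gave 3354 called genes (25.6%; 1798 or 13.7% higher, 1556 or 11.9% lower) with 2 libraries per state, of which 2391 were also called in the same direction after irradiation (53.6% of the irradiated and 71.3% of the non-irradiated list) and 24 in the opposite one. The library Non-irradiated M0 replicate 2 stood above the other 2 M0 libraries in LPS-induced genes, for example Il1b at 38.6 CPM against 4.83 and 5.22 CPM and Ms4a4c at 51.1 CPM against 10.4 and 11.2 CPM, and it is among the 4 non-irradiated libraries tested. The difference between the irradiated and the non-irradiated response was called for 38 genes (0.290%), 20 with the irradiated change higher (0.153%) and 18 lower (0.137%), with 1975 at an unadjusted p under 0.05. The count depends on the libraries: it was 419 with all 3 replicate numbers but without the 5 libraries at odds, and 7 to 94 when 1 library at a time was left out (7 without Standard M0 replicate 3, 94 without Non-irradiated M0 replicate 3 or Standard M1 replicate 2). The fits that each left out 1 library called 6 to 36 of the 38 again. With the replicate number as a block the count was 9, of which 8 were among the 38: H2-Aa, H2-Ab1, Cd74, Gzmb, Gzmc, Fcrls, Bmp1 and Tgfbi. The other genes named below were not called with the block (adjusted p = 0.0572 to 0.0892). Of the 38, 10 were called in both responses in the same direction, 3 in both in opposite directions, 10 after irradiation alone and 15 in non-irradiated cells alone.

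MHC class II genes were among them. H2-Aa was at 16.4 to 22.7 CPM in irradiated LPS-state and 10.4 to 22.2 CPM in irradiated control-state libraries, while the non-irradiated M0 libraries held 387 to 795 CPM and the M1 libraries 86.9 to 223 CPM. It thus fell in non-irradiated cells (-2.84 ± 0.22) and not detectably in irradiated cells (0.11 ± 0.15), a difference of 2.95 ± 0.26 (adjusted p = 0.00379). All 12 irradiated libraries were below all 6 non-irradiated libraries, in both states. H2-Aa and H2-Ab1 were called in all 12 fits that each left out 1 library, and within replicate numbers 2 and 3 the H2-Aa difference was 3.32 and 2.59. H2-Ab1 showed the same order, with 28.3 to 41.4 CPM and 12.1 to 31.7 CPM in irradiated LPS and control libraries and 173 ± 105 CPM (SD, n = 3) and 640.5 ± 265 CPM (SD, n = 3) in non-irradiated M1 and M0 libraries (difference 3.16 ± 0.31). Tmem176b fell in non-irradiated cells from 77.2 ± 9.83 CPM to 16.3 ± 9.06 CPM (SD, n = 3 each) and was 6.17 to 24.1 CPM and 5.92 to 10.3 CPM in irradiated LPS and control libraries (difference 3.52 ± 0.52), and was not called in 8 of the 12 fits that each left out 1 library.

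Other genes rose after LPS in irradiated cells more than in non-irradiated cells. Cp (ceruloplasmin, a copper ferroxidase) changed by 4.0 ± 0.26 in irradiated and 1.02 ± 0.37 in non-irradiated cells, a difference of 2.99 ± 0.45 (adjusted p = 0.0379). After LPS its levels overlapped, 53 to 81.6 CPM irradiated and 46.8 to 60.2 CPM non-irradiated. In the control state they did not, 1.78 to 4.99 CPM irradiated and 11 to 41.8 CPM non-irradiated. Cebpd was at 31.1 to 36.6 CPM in irradiated LPS-state and 6.72 to 9.89 CPM in irradiated control-state libraries. In non-irradiated M1 and M0 libraries it was 17.2 ± 0.933 CPM and 17.1 ± 7.95 CPM (SD, n = 3 each), and the difference was 2.16 ± 0.33. Raver2 was above 5 CPM in all 6 irradiated LPS-state libraries and below 1.2 CPM in the other 12 libraries compared (difference 3.32 ± 0.45). Ly6c2 rose in both, by 3.45 ± 0.17 and 1.68 ± 0.24 (difference 1.77 ± 0.30), from 0.187 to 2.77 CPM in irradiated control-state and 19.9 ± 7.56 CPM (SD, n = 3) in non-irradiated M0 libraries. After LPS its level was lower in irradiated cells, 11.3 to 22.7 CPM against 78.7 to 95.7 CPM, so the larger log2 change goes with control values near 0. Each of these 4 differences was lost in most fits that left out 1 library: Cp and Cebpd in 9 of 12, Raver2 in 7 and Ly6c2, whose adjusted p was 0.0498, in 11.

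In the other direction, granzyme genes, whose products are cytotoxic proteases of lymphocytes, were induced in non-irradiated libraries alone. Gzmb was 31.1 to 42.7 CPM in the 3 non-irradiated M1 libraries and at most 1.12 CPM in all 12 irradiated ones (difference -5.45 ± 0.46, adjusted p = 0.00379), and Gzmc 9.0 to 9.26 CPM against at most 0.469 CPM (difference -3.93 ± 0.41). Among T and NK cell markers Cd3e, Lck and Nkg7 were not called in irradiated cells, and the list's median change was -0.06 in irradiated and 1.22 in non-irradiated libraries. Cxcl11, an interferon-induced chemokine, rose in both but less after irradiation: 2.81 to 9.97 CPM in irradiated LPS-state and 23.2 to 29.8 CPM in non-irradiated M1 libraries (difference -2.57 ± 0.43). Tlr13, a sensor of bacterial ribosomal RNA, fell in irradiated cells (-0.35 ± 0.09) and rose in non-irradiated ones (0.71 ± 0.12), a difference of -1.05 ± 0.15. The phosphodiesterase Pde7b (-1.77 ± 0.25) and the surface protein Thy1 (-1.77 ± 0.26) also differed downward. Mknk2 had the largest positive difference (4.38 ± 0.71), but its estimates jump between 0 and 7.09 CPM among replicates, so its values are uncertain. Gzmb was called in all 12 fits that each left out 1 library and Gzmc in 10. Tlr13 was not called in 9 of them, Pde7b in 8, Thy1 and Mknk2 in 10 and Cxcl11 in 11.

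**Figure D5:**
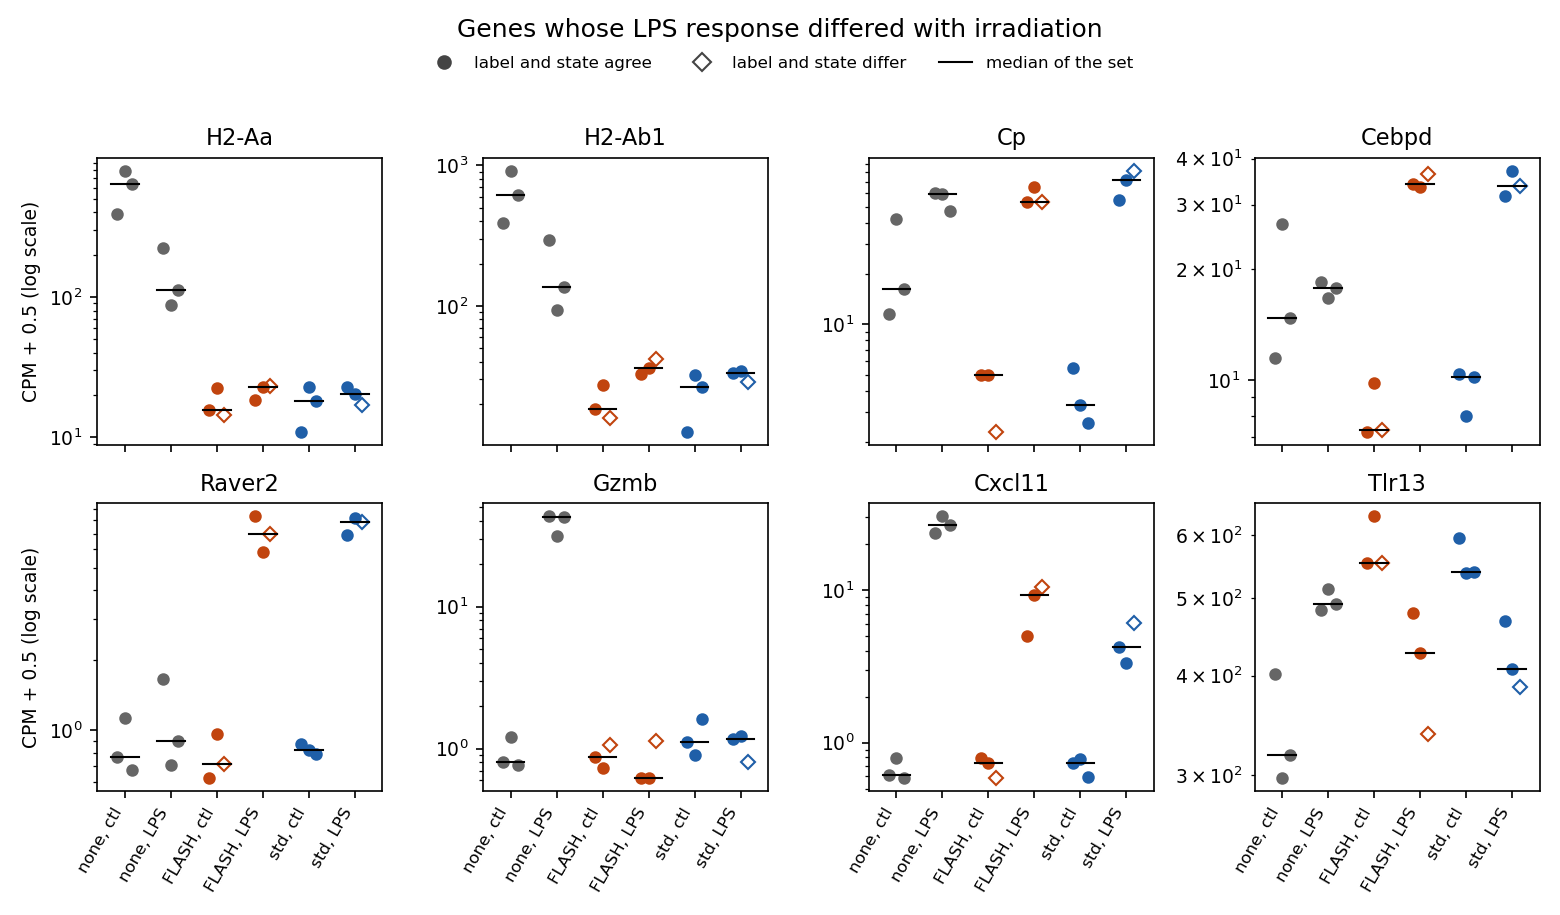
CPM + 0.5 on a log axis of 8 genes whose LPS response differed between irradiated and non-irradiated libraries, each library a point (grey, non-irradiated; orange, FLASH; blue, standard), with open diamonds for libraries whose state differs from the label and a line at the median of each set. H2-Aa and H2-Ab1 are lower in all 12 irradiated libraries than in all 6 non-irradiated ones, and Gzmb is above 30 CPM in the non-irradiated M1 libraries alone.

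Across whole lists the same comparison is descriptive. The 30 antiviral genes had a median change of 2.40 in irradiated and 3.42 in non-irradiated libraries, with all 30 called higher in each. The mitochondrially encoded genes had medians of -0.96 and -1.45, with all 13 lower in each. For mitosis and replication genes the medians had opposite signs, 0.46 with 9 higher and 1 lower, and -0.86 with 0 higher and 11 lower. None of the 30 antiviral, 13 mitochondrial or 30 mitosis genes had a called difference between irradiated and non-irradiated responses, which at a share of 0.290% of all genes says nothing about these lists.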

How the data were processed

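RNA-seq was made from total RNA of mouse bone marrow macrophages. The deposited file is 1 table of expression signal for 27 libraries: the authors quantified reads with kallisto 0.46.1 and made CPM with TMM scaling in edgeR 3.36.0 (R 4.0.5), per the submitters' processing notes, which name the build GRCh38 although the cells are murine. These CPM values, treated as a signal and not as counts, hold no read depth, and the precision rests on the number of libraries. Of 19070 rows, 1 without a symbol (at most 0.00799% of a column) was left out. Samples were grouped by the labels for tests and by Irg1 and Arg1 for description. Tests used limma 3.58.1 (trend, robust; R 4.3.3, statmod 1.5.0) on log2(CPM + 0.5) for the 13100 genes that reached 1 CPM in 2 or more of the 12 libraries labelled replicate 2 or 3 (FLASH, standard and non-irradiated, M0 and M1, each group a mean), with Benjamini-Hochberg adjustment over all genes at 0.05. The fit was tested on simulated data. Whether the code shared by same-numbered libraries marks a batch is not given in the sources used here, so the block is an alternative. Alternatives changed the pseudocount, filter, scaling, moderation, samples and replicate block. The genes, lists and libraries were chosen with earlier results of these data known. Named genes are the 10 highest and 10 lowest called changes without overlap and with 5 CPM or more (predicted gene models left out), as many as 3 called genes a direction from every list (the smallest p where none was called), 26 fixed markers, and 5 genes per direction of each difference (the smallest p where none was called); Cebpd, Ly6c2 and Tlr13 were compared with non-irradiated cells as list members. Some genes that the rule names are not reported here. Promoter letters come from RefSeq (GRCm38.p6). Of 69 named genes, each taken for the motifs set for its list or marker set, 51 had an entry and 17 a motif. The chromosome of Iigp1 and Csf1r was left out of this step.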

Additional observations from a re-analysis of the deposited data

Results flagged for a closer look

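In 42 named genes, both states were checked for a library standing apart from the other 5 of its state; 8 of 84 sets were flagged, and chance flags about 1 in 20. In the LPS state, Ccl5 was lowest in Standard M1 replicate 3 at 1036 CPM, with the others at 1491 to 1658 CPM. Egr2 was highest in Standard M1 replicate 2 at 3.51 CPM, with the others at 1.83 to 2.26 CPM. Il12b was highest in the library labelled Standard M2 replicate 1 at 3.74 CPM, with the others at 0.785 to 1.79 CPM. In the control state, 3 genes were highest in FLASH M0 replicate 3: Hpgd at 55.3 CPM (others 22.6 to 34.6 CPM), Il6 at 0.322 CPM (others 0 to 0.0933 CPM) and Ifit1 at 53.3 CPM (others 28.7 to 34.0 CPM). Il12b was highest in Standard M0 replicate 1 at 0.280 CPM (others 0 to 0.0830 CPM), and Phlda3 in Standard M0 replicate 3 at 182 CPM (others 156 to 165 CPM).

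The LPS response differed between irradiated and non-irradiated cells, by limma's test of the difference, for these named genes (irradiated minus non-irradiated log2 change). The difference was positive for Mknk2 (4.38), Tmem176b (3.52), Raver2 (3.32), H2-Ab1 (3.16), Cp (2.99), H2-Aa (2.95), Cebpd (2.16) and Ly6c2 (1.77). It was negative for Gzmb (-5.45), Gzmc (-3.93), Cxcl11 (-2.57), Pde7b (-1.77), Thy1 (-1.77) and Tlr13 (-1.05). With all 3 replicate numbers but without the 5 libraries at odds with their labels, 31 of the 38 genes were called again in the same direction. The replicate block kept 8 of them, all 3 replicate numbers under their labels 6, and leaving out 1 library at a time 6 to 36.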

How the results depend on the processing

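Pseudocounts of 0.1 and 1, no filter or a filter of 5 CPM, median-of-ratios scaling and limma without trend and robust moderation left every count within 1.5 times its reported value. For irradiated cells they gave 4194 to 4472 called genes beside 4464. Which genes were called for the difference from non-irradiated cells moved more. Of the 38, 21 were called again without trend and robust moderation, 26 with a pseudocount of 0.1 and 27 with the filter of 5 CPM. It was 34 without a filter and 37 with a pseudocount of 1 or median-of-ratios scaling. No called change of a named gene reversed in any setting, and 8 named genes that were not called (Arg1, Cdkn1a, Gzmb, Gzmc, H2-Aa, Mknk2, Retnla and Thbs2) changed sign in at least 1. With all 3 replicate numbers under their labels the counts for irradiated, FLASH and standard cells were 0, 0 and 0. Without the 5 libraries at odds with their labels, the count for irradiated cells was 4958, with 4328 genes shared in the same direction, and that for the difference between irradiated and non-irradiated responses was 419. With the groups compared alone in the fit, 1448 genes were called for non-irradiated cells and 1 for FLASH minus standard. With the IL-4 libraries in the fit, the difference from non-irradiated cells gave 69. State and mode as additive terms on the 8 irradiated libraries, an alternative chosen after seeing the data, gave 4868.

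Same-numbered libraries share a code in their titles that the labels do not explain. Correlations of their deviations were -0.22 to 0.15 over 15 pairs of groups, 1 of them over 0.1 (FLASH M1 with Standard M1). With a replicate block, 4038 genes were called for irradiated cells and 9 for the difference from non-irradiated cells. Of the named genes' responses in irradiated cells, the block lost the calls of Cd14, Adam17 and Idh2 (adjusted p = 0.0609 to 0.0618) and changed no other.

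Leaving out 1 library at a time gave 3430 to 4542 genes for irradiated cells, 1470 to 3135 for FLASH, 1144 to 2597 for standard, 0 to 1 for FLASH minus standard, 7 to 94 for the difference from non-irradiated cells and 1952 to 3161 for non-irradiated cells. A state left with 1 library is then assumed to vary like the other groups. The FLASH count was 1680 without FLASH M0 replicate 2, 1886 without FLASH M0 replicate 3 and 1470 without FLASH M1 replicate 3. The standard count was 1144 without Standard M0 replicate 2, 1368 without Standard M0 replicate 3, 1439 without Standard M1 replicate 2 and 1246 without Standard M1 replicate 3. The non-irradiated count was 1952 without Non-irradiated M0 replicate 3 and 1972 without Non-irradiated M1 replicate 2. The difference from non-irradiated cells was 7 to 11 without FLASH M0 replicate 2 or 3, FLASH M1 replicate 3, Non-irradiated M1 replicate 2, Standard M0 replicate 2 or 3 or Standard M1 replicate 3, 22 without Non-irradiated M1 replicate 3, and 94 without Non-irradiated M0 replicate 3 or Standard M1 replicate 2. The causes were not tested. Unknown depth limits statements on genes near 0 CPM.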
